A study of Mus musculus with 11 samples.

Results

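The phospholipase C genes considered here were Plcb1, Plcb2, Plcb3, Plcb4, Plcd1, Plcd3, Plcd4, Plce1, Plcg1 and Plcg2, chosen by gene name. They are 10 of the 36413 distinct names that the array gives to its probes other than controls. They were measured in the descending aorta of male C57BL/6 mice aged 20 months, with 1 one-color Agilent mouse array for each mouse. The 5 old nitrate treated mice had received 1 g/L sodium nitrate (NaNO3) in their drinking water for 8 weeks. There were 6 old control mice. Sodium chloride at the same concentration is given as the control treatment in the study's methods, whereas the sample labels name the agent only as control and refer to arrays that were analysed before. Another nitrate array of the study is not used here. All mice were males of 1 strain and 1 age, and the whole vessel wall was used, so that in this tissue fewer cells of a type and less RNA per cell cannot be told apart.

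Phospholipases C cleave the membrane lipid phosphatidylinositol 4,5-bisphosphate (PIP2) into inositol trisphosphate (IP3), which releases calcium from intracellular stores, and diacylglycerol, which activates protein kinase C. The beta isoforms are switched on by G proteins of the Gq class, the gamma isoforms by tyrosine kinases, the epsilon isoform by small GTPases, and the delta isoforms respond to calcium itself. In vascular smooth muscle this step links constrictors such as noradrenaline, angiotensin II and endothelin to the calcium signal for contraction. The comparison asks which isoforms differed in the old aorta after dietary nitrate.

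The 10 genes had 19 probes of 60 bases each, and 11 probes of 8 genes were detected. A detected probe had a spot that the scanner software found, with signal well above background, in no fewer than 5 mice of a group. Plcb2 and Plce1 had no detected probe. Positions are those the array files give in build mm9, and no annotation of that build was used to separate coding sequence from UTR. The first 30 bases of the probes on which the results turn are printed so that each value can be traced to its probe. The transcripts named are those supplied with the array, and the assignments were not tested. The upstream Plcb4 probe at chr2:135807797-135807856 (plus strand) and the next at chr2:135838745-135838804 are assigned by the files to the RefSeq transcript of the gene. The 3′-most Plcb4 probe at chr2:135840255-135840314 starts 1510 bases further on and is assigned to Ensembl transcripts and a GenBank mRNA, with no RefSeq transcript listed. The Plcd1 probe lies at chr9:118980738-118980797 (minus strand) and is assigned to RefSeq and Ensembl transcripts.
Plcb4 upstream: gaaatttctttcaatcacagagaagagagc
Plcb4 RefSeq end: accgcagaccagcaacagtagtatgaaact
Plcb4 3′-most: gagggcagagaagattatgataccatgaag
Plcd1: ctgagcttctacttctctgggggtccagga
No whole probe was shared between members, and any 2 probes of different members had at most 27 of 60 bases in common when set side by side without gaps.

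Of the 8 genes with a detected probe, 2 were differentially expressed, Plcb4 and Plcd1, and both were higher in old nitrate treated mice. The thresholds, taken from the study, were a fold change above 1.2 and an unadjusted limma P value under 0.05. Across all 18294 genes tested, 8.89% met these thresholds and 4.27% did so with higher signal after nitrate. After Benjamini-Hochberg adjustment over all 23633 detected transcripts no phospholipase C probe passed, and the smallest adjusted P value was 0.101, for Plcd1. Without the fold limit, at an unadjusted limma P value under 0.05, the count of members was also 2, and 14.5% of all genes passed. The difference was above 0 in 6 of the 8 genes, with a median of 0.11 on the log2 scale, against a median of 0.017 over all genes tested, of which 54.6% lay above 0. No test of the genes as a list was made.

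**Figure D1:**
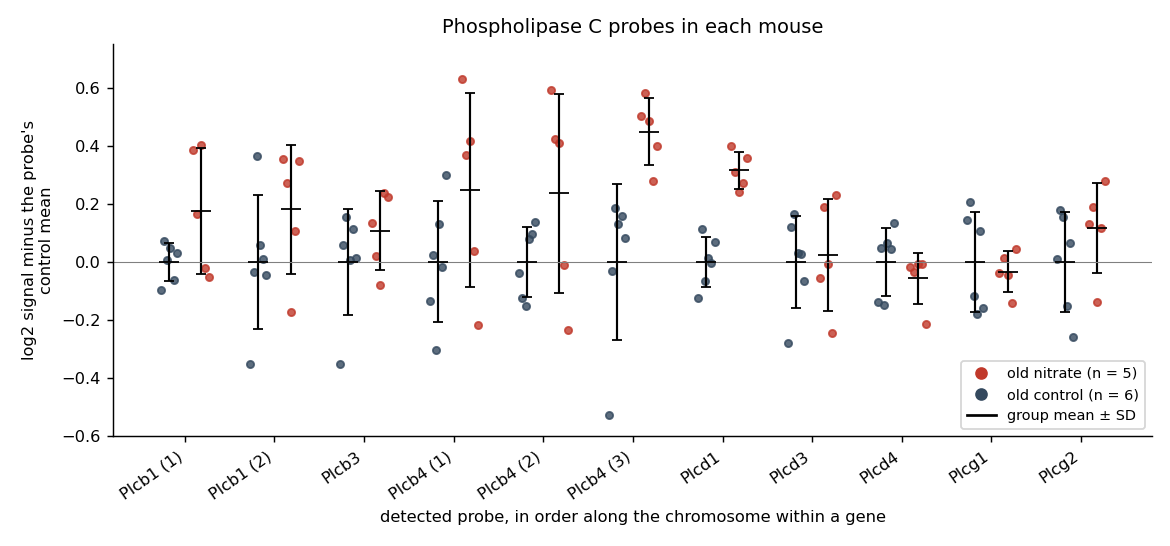
Log2 signal of each mouse minus the mean of the control mice, for the 11 detected phospholipase C probes. Points are mice (red, old nitrate, n = 5; dark, old control, n = 6), and bars give group mean ± SD. Numbers in brackets count the probes of a gene along the chromosome. The groups separate without overlap for Plcb4 (3) and Plcd1 only.

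Plcd1 encodes a delta isoform whose activity rises with intracellular calcium. Its quantile normalized log2 signal was 12.55, 12.46, 12.39, 12.42 and 12.51 in the nitrate treated mice. In the control mice it was 12.02, 12.26, 12.08, 12.16, 12.14 and 12.22. The lowest nitrate treated mouse lay above the highest control mouse. The means were 12.46 ± 0.06 (SD, n = 5) and 12.15 ± 0.09 (SD, n = 6), a difference of 0.32 with a standard error of 0.06 and a 95% interval from 0.18 to 0.45, or 1.24-fold. The limma P value was 0.000309, and the exact two-sided permutation test over the 462 divisions of the mice gave 0.00216, the smallest value this design allows. The difference was positive on each slide of arrays, at 0.36, 0.20 and 0.35. As deposited, before normalization between arrays, the processed intensity ran from 4551 to 6864 in nitrate treated mice and from 3744 to 5090 in controls.

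The other detected delta isoforms did not pass the test. Plcd3 had 2 probes that overlap in 53 of their 60 bases, and the shared stretch is in capitals in the first 30 bases of each.
Plcd3 detected probe: tggcagtAGGTTTGTAACTTGTGTTATAGA
Plcd3 second probe: AGGTTTGTAACTTGTGTTATAGAagagccc
The detected probe (chr11:102931636-102931695, minus strand) gave 9.59, 9.83, 9.64, 9.40 and 9.87 after nitrate and 9.36, 9.76, 9.81, 9.67, 9.67 and 9.58 in controls. The groups overlapped over most of their range, and the difference was 0.02 with a 95% interval from -0.20 to 0.25 (exact permutation P = 0.81). The second probe was found on 4 nitrate and 3 control arrays and was not counted as detected. Its difference was 0.07. Within a mouse, its signal minus that of the detected probe lay between -0.51 and -0.27 on the log2 scale, with an SD of 0.07 over the 11 mice.

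Plcd4 is read by 3 probes that disagreed in whether any signal was present. The probe at chr1:74614298-74614357, assigned to Ensembl transcripts and a GenBank mRNA with no RefSeq transcript listed, was well above background on all 11 arrays. It gave 13.84, 13.82, 13.85, 13.85 and 13.64 after nitrate and 13.72, 13.90, 13.71, 13.92, 13.90 and 13.99 in controls. Every nitrate treated mouse lay below the median of the controls, and mouse 5 also below the lowest control, and the difference was -0.06 with a 95% interval from -0.22 to 0.10 (exact permutation P = 0.383). Without nitrate treated mouse 5 it was -0.02, and without control 3 it was -0.09. The other Plcd4 probes, at chr1:74611705-74611842 and chr1:74612436-74612495, are assigned to the RefSeq transcripts and were not well above background on any array, so no fold is given for them. A further probe that the files name by a Plcd4 transcript, outside the choice by gene name, was well above background on 2 control arrays and on no nitrate array.
Plcd4 detected probe: ggaatctgatgccctattctgatgtgtctg
Plcd4 RefSeq probe, first: gaaataactttattggccaatacaccctac
Plcd4 RefSeq probe, second: aaaggttgaggaagaatgcctgactcaaaa
The value of Plcd4 thus rests on a single probe, and which transcript that probe reads was not tested.

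Plcb4 encodes a beta isoform that acts downstream of Gq-coupled receptors. At the 3′-most probe the log2 signal was 12.61, 12.69, 12.60, 12.39 and 12.51 in nitrate treated mice. In control mice it was 11.59, 12.08, 12.30, 12.24, 12.27 and 12.19. All nitrate treated mice lay above all controls, and control 1 stood well below the other controls. The means were 12.56 ± 0.12 (SD, n = 5) and 12.11 ± 0.27 (SD, n = 6), a difference of 0.45 with a standard error of 0.12 and a 95% interval from 0.18 to 0.72, or 1.36-fold. The limma P value was 0.00335, adjusted P was 0.182 and the exact permutation P value was 0.00216. Within slides the difference was 0.82, 0.38 and 0.17, the first being the slide that holds control 1. Without control 1 the difference was 0.34 and still met both thresholds.

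The upstream Plcb4 probe gave 11.62, 11.36, 11.41, 11.03 and 10.77 after nitrate and 10.86, 11.02, 10.69, 11.12, 10.97 and 11.29 in controls. The RefSeq end probe gave 11.18, 11.01, 10.99, 10.58 and 10.35 after nitrate and 10.55, 10.46, 10.43, 10.66, 10.68 and 10.72 in controls. At both, nitrate treated mice 1, 2 and 3 were above every control, mouse 4 lay among the controls or between them, and mouse 5 was near or below the lowest ones. The differences were 0.25 (95% interval -0.08 to 0.58, exact permutation P = 0.167) and 0.24 (-0.07 to 0.54, P = 0.149 by the same exact test), and neither met the threshold. Without nitrate treated mouse 5 they were 0.36 and 0.35 and met both thresholds, and without nitrate treated mouse 1 they were 0.15 at each probe and did not. With slide as a block the upstream probe was at 0.28 and met both thresholds, and the RefSeq end probe was at 0.26 and did not. Averaged over its 3 probes, Plcb4 was higher by 0.31 with a standard error of 0.12 (limma, adjusted P = 0.275).

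Whether the 3 Plcb4 probes differed in their response was tested on the difference between probes within each mouse. The 3′-most probe exceeded the upstream probe by 0.20 more after nitrate than in controls, with a 95% interval from -0.20 to 0.60 (exact permutation P = 0.281). Against the RefSeq end probe the value was 0.21, from -0.16 to 0.58 (exact permutation P = 0.251). The upstream and RefSeq end probes, whose starts are 30948 bases apart, differed by -0.01, from -0.16 to 0.14 (exact permutation P = 0.861). Without nitrate treated mouse 5 the first 2 of these values were 0.10 and 0.11, and the highest values with a mouse left out were 0.30 (without control 3) and 0.29 (without nitrate treated mouse 1). A larger response at the 3′-most probe was not detectable with these mice.

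**Figure D2:**
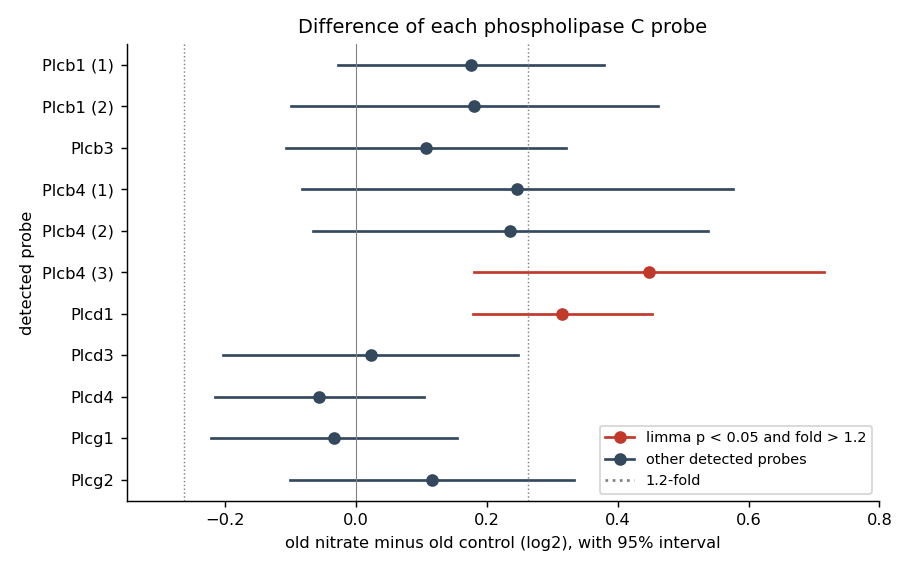
Difference between old nitrate (n = 5) and old control mice (n = 6) on the log2 scale for the 11 detected phospholipase C probes. Points are limma estimates, lines are 95% intervals, and dotted lines mark 1.2-fold. The intervals of Plcb4 (3) and Plcd1, in red, lie above 0, and those of the other 9 probes include 0.

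The remaining beta isoforms did not pass the test. Plcb1, a Gq effector like Plcb4, had 2 detected probes. The brighter one (chr2:135300906-135300965) gave 9.00, 8.92, 8.48, 8.75 and 9.00 after nitrate and 8.30, 8.61, 9.01, 8.71, 8.66 and 8.60 in controls, with overlap and a difference of 0.18 (exact permutation P = 0.225). Within slides it was 0.51, -0.18 and 0.04. The other detected probe (chr2:135213554-135213613) had a difference of 0.18 as well (exact permutation P = 0.0974). The remaining Plcb1 probe, found on only 4 nitrate and 2 control arrays, had a difference of 0.21 (exact permutation P = 0.115). Plcb1 crossed the thresholds only when nitrate treated mouse 3 was left out, where the brighter probe gave 0.27. Without control 1 this probe gave 0.11.

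Plcb3, another Gq effector, gave 11.21, 11.09, 10.99, 11.31 and 11.30 after nitrate and 10.72, 11.13, 11.23, 11.08, 11.19 and 11.09 in controls. Control 1 was again the lowest mouse, and the difference was 0.11 with a 95% interval from -0.11 to 0.32 (exact permutation P = 0.335). Without control 1 the difference was 0.04. Plcb2, known mainly from blood cells, had 2 probes and neither was well above background on any array.

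The gamma isoforms, which dock on activated growth factor receptors, did not differ beyond the spread between mice. Plcg1 (chr2:160587142-160587201) ranged from 6.18 to 6.37 after nitrate and from 6.14 to 6.53 in controls, a difference of -0.03 with a 95% interval from -0.22 to 0.15 (exact permutation P = 0.68). Its second probe was well above background on 1 control array and on no nitrate array. A probe that the files name by a Plcg1 transcript, and which the choice by gene name leaves out, gave -0.04. Plcg2 (chr8:120158980-120159037) ranged from 9.00 to 9.42 after nitrate and from 8.88 to 9.32 in controls, a difference of 0.12 from -0.10 to 0.33 (exact permutation P = 0.268), with 0.07, 0.07 and 0.09 within slides. Without control 6 the Plcg2 difference was 0.06, and without nitrate treated mouse 3 it was 0.18. Plce1, the isoform bound by Ras family GTPases, had signal well above background in all 11 mice, yet the software found its spot on only 4 nitrate and 2 control arrays. It ranged from 6.76 to 7.26 after nitrate and from 6.72 to 7.16 in controls, a difference of 0.06 (exact permutation P = 0.587).

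**Figure D3:**
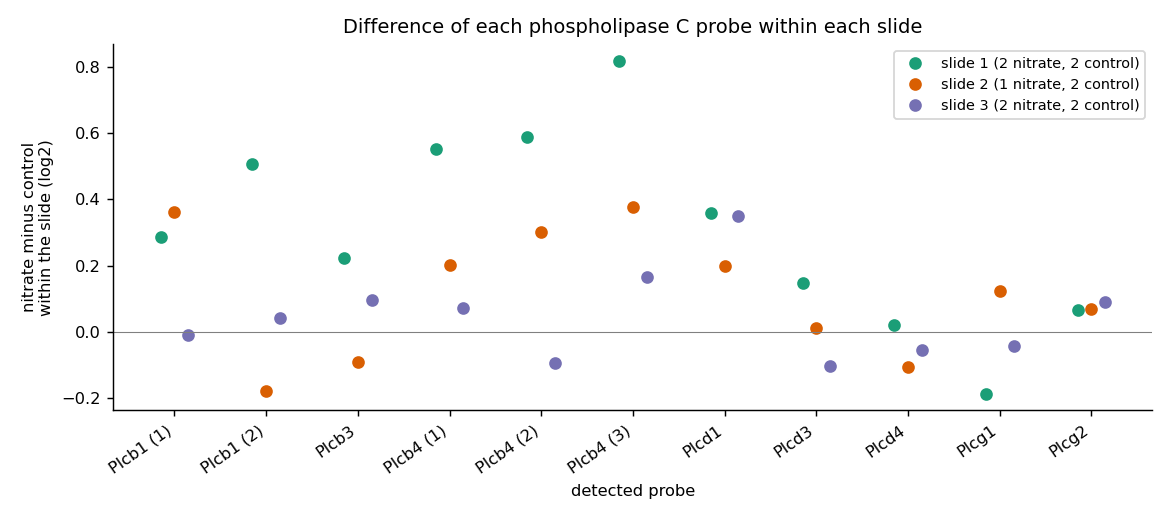
Difference between nitrate and control mice within each of the 3 slides of arrays (log2), for the 11 detected phospholipase C probes. Each point is a difference of means on 1 slide, with 1 or 2 mice per group. Plcd1, Plcb4 (1), Plcb4 (3) and Plcg2 are above 0 on every slide, and the 3 Plcb4 probes are largest on slide 1.

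The groups did not overlap in 2 of the 11 detected probes of these genes, against 2.75% of all detected transcripts. Between isoforms of 1 class the response was compared within each mouse, as the log2 difference of 2 genes, in 10 comparisons that share probes and include the Plcb4 probes above. Plcd1 rose relative to Plcd4 by 0.37, with a 95% interval from 0.24 to 0.51 and no overlap between groups (exact permutation P = 0.00216, adjusted over the 10 comparisons 0.0216). Plcd4 is here its only detected probe, and which transcript that probe reads was not tested. The RefSeq probes of Plcd4 were not well above background on any array. Plcb4, at its 3′-most probe, rose relative to Plcb3 by 0.34, from 0.10 to 0.58 (exact permutation P = 0.00866, adjusted 0.0433). These pairs were set after the values had been seen, and Plcd1 and Plcb4 are the same genes as those called above. The adjustment does not allow for that choice, so the pairs add no separate evidence.

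Other pairs did not pass after adjustment. Plcd1 relative to Plcd3 was 0.29 higher, from 0.07 to 0.51 (exact permutation P = 0.0195, adjusted 0.0649). Plcb4 relative to Plcb1 was 0.27 higher, from 0.01 to 0.53 (exact permutation P = 0.0325, adjusted 0.0812). For Plcd3 against Plcd4 the value was 0.08, from -0.22 to 0.38, for Plcb3 against Plcb1 it was -0.07, from -0.28 to 0.13, and for Plcg2 against Plcg1 it was 0.15, from -0.05 to 0.35.

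**Figure D4:**
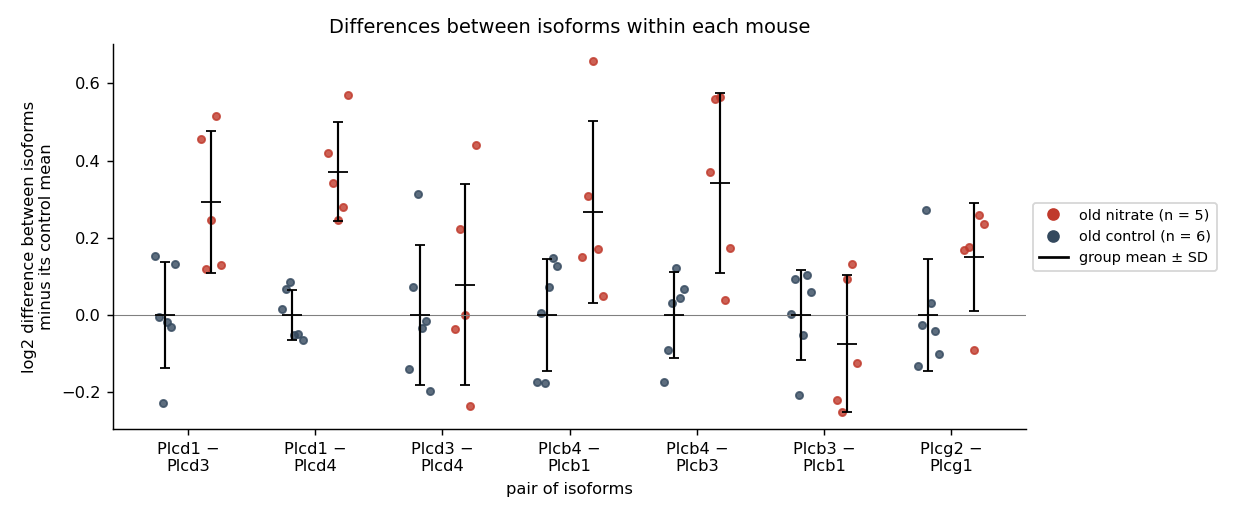
Log2 difference between 2 isoforms of a class in each mouse, minus its mean in the control mice, for 7 pairs. Points are mice (red, old nitrate, n = 5; dark, old control, n = 6), and bars give group mean ± SD. The groups separate without overlap for Plcd1 minus Plcd4. Plcd4 is read by its only detected probe, and which transcript that probe reads was not tested.

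The remaining phospholipase C pathway was described with 12 lists of 110 genes, of which 86 were detected. Of these 86 genes, 2 were differentially expressed and higher after nitrate and 7 were lower. Of all genes, 4.27% were called higher and 4.62% lower. After Benjamini-Hochberg adjustment 0 of the 86 genes passed with limma, and 16 had an unadjusted limma P value under 0.05, against 14.5% of all genes. Without the fold limit the balance turned, with 9 of the 16 genes higher and 7 lower, against 8.04% and 6.43% of all genes. The median difference was 0.04. Of 8 other family members, among them the catalytically inactive Plcl1 and Plcl2, 4 were detected and none was called, with differences between -0.10 and 0.22. Of the Gq class G proteins Gna11 and Gna15 were detected, at 0.01 and -0.02. Without the detection filter 11 of the 110 pathway genes were called, and 3224 of all 55681 probes. The added genes were the G protein gene Gna14 and the prostaglandin E receptor gene Ptger1, both higher, which makes 4 higher and 7 lower. The spot of Gna14 was found on 3 nitrate and 4 control arrays and that of Ptger1 on 3 nitrate and 2 control arrays. Both were named after their values had been seen.

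Among 16 detected Gq-coupled receptors, 1 was called higher and 3 lower, against 4.27% and 4.62% of all genes. F2r, the thrombin receptor PAR1, ranged from 11.03 to 11.37 after nitrate and from 10.59 to 10.87 in controls, a difference of 0.38 with no overlap (exact permutation P = 0.00216). Adra1a, an alpha-1 adrenergic receptor for noradrenaline, was lower by a difference of -0.59 (exact permutation P = 0.0108), at 5.01 to 5.85 against 5.72 to 6.03, and it was not called with normexp background correction. Oxtr, the oxytocin receptor, and Ednrb, the endothelin B receptor, met the limma thresholds at -0.50 and -0.29, while their exact permutation P values were 0.0606 and 0.0563. Ednrb was not called without nitrate treated mouse 1, 4 or 5 or control 1, 3 or 6, and Oxtr without nitrate treated mouse 2 or 5 or control 1, 3 or 4. Neither was called with normexp or with slide as a block, and within slide 2 the difference of Ednrb was 0.07. Oxtr was also not called where signal well above background was required on all 11 arrays. Of 9 detected receptor tyrosine kinases only Pdgfrb, the PDGF receptor beta of mural cells, was called, at 0.27 and 1.21-fold (exact permutation P = 0.00433), just past the fold threshold. It was not called without nitrate treated mouse 2 or without control 1.

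Of 34 detected genes that handle the products of the reaction, 4 were called lower and 0 higher, against 4.62% and 4.27% of all genes. Without the 1.2-fold limit, 4 of the 34 genes were higher and 4 lower at a limma P value under 0.05, against 8.04% and 6.43% of all genes. The 4 higher ones were Itpr3, Inpp1, Dgka and Dgkz, at 0.21, 0.21, 0.23 and 0.22. They were named after their values had been seen. Itpr2, which encodes an IP3-gated calcium channel, ranged from 11.56 to 11.91 after nitrate and from 11.99 to 12.24 in controls, a difference of -0.40 without overlap (exact permutation P = 0.00216). The other IP3 receptors, Itpr1 and Itpr3, were at 0.15 and 0.21 and were below 1.2-fold. Of 8 genes of IP3 metabolism, the kinases Itpka and Itpk1 were lower, by differences of -0.44 and -0.37 (exact permutation P = 0.0303 and 0.0108). Dgkd, a kinase that converts diacylglycerol to phosphatidic acid, was lower by a difference of -0.32 without overlap (exact permutation P = 0.00216), and the other 6 detected diacylglycerol kinases were not called. Dgkd was not called without nitrate treated mouse 1, the lowest mouse for it, while Itpr2, Itpka and Itpk1 were called without each mouse in turn. None of the 7 detected protein kinase C and D genes, 9 PIP2 supply genes, 9 other diacylglycerol effectors or 5 RGS proteins, which switch off Gq, was called.

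**Figure D5:**
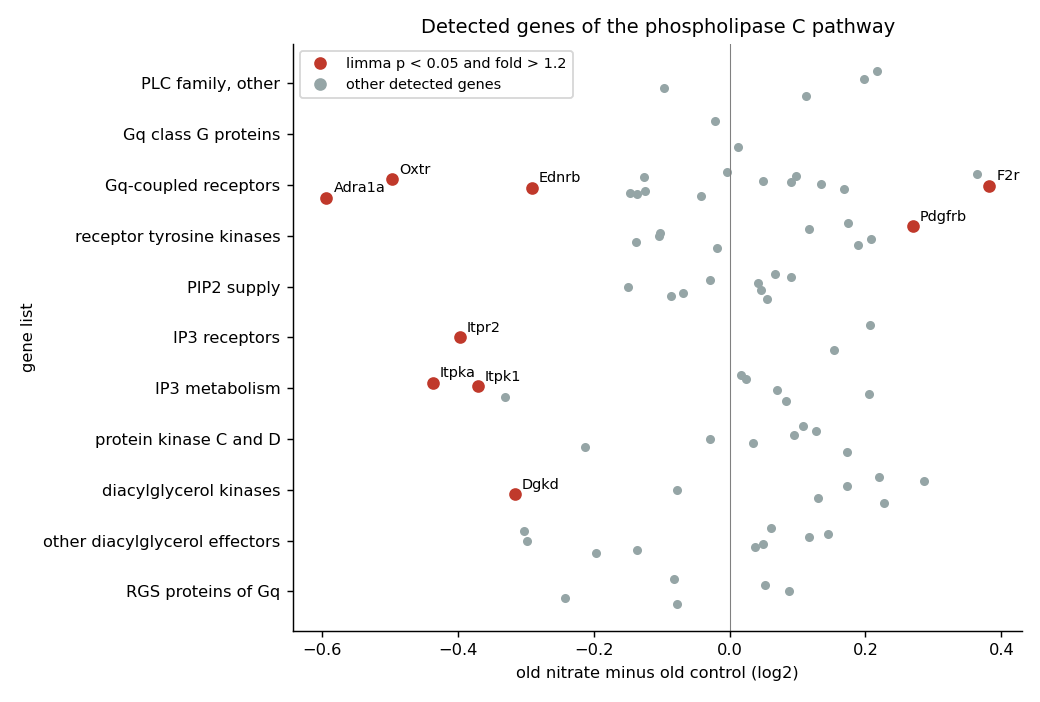
Difference between old nitrate (n = 5) and old control mice (n = 6), log2, for 79 detected genes of 11 lists of the phospholipase C pathway. Each point is a gene, read by its brightest detected probe. The 9 called genes are red and named, with 2 on the right and 7 on the left of 0.

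The 3 transcripts whose signal was most like Plcb4's over the 11 arrays, among 15468 with a gene symbol, were Apol7b (Pearson's correlation 0.983, Spearman's 0.991), Clip4 (Pearson's 0.968) and Gm9224 (Pearson's 0.967). Without the 2 mice farthest from the median of Plcb4 these correlations were 0.943, 0.931 and 0.885. For Plcd1 they were Slc25a12 (Pearson's 0.971, Spearman's 0.936), Polm (Pearson's 0.965) and Neurl2 (Pearson's 0.965), and 0.962, 0.945 and 0.952 without the 2 farthest mice. They were picked as the highest of many, and the mice of a group share their difference from the other group, so the values are descriptions.

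Lists of cell type markers were read on the same arrays. For comparison, 54.6% of all genes tested lay above 0, 4.27% were called higher and 4.62% lower. All 8 smooth muscle markers had a positive difference, 1 of them called, with a mean of 0.15, and of 0.09 without control 1. Per mouse their mean, relative to all mice, ran from -0.05 to 0.23 after nitrate and from -0.34 to 0.04 in controls. Control 1 was the lowest of these, as it was for Plcb3, Plcd1, the 3′-most Plcb4 probe, both detected Plcb1 probes and both Plcd3 probes. It was not the lowest mouse for the other Plcb4 probes. Relative to all mice, control 1 was also the highest control for the striated muscle (2.55), adipocyte (0.58), leukocyte (0.35), nerve (0.25) and endothelial (0.18) markers. The log2 of the summed signal of the list ran from 19.37 to 19.44 and from 19.04 to 19.43. All 9 adipocyte markers had a negative difference, 5 of them called, with a mean of -0.43, and of -0.35 without control 1, and their summed signal ran from 17.90 to 18.27 after nitrate and from 18.27 to 18.74 in controls. All 6 fibroblast markers had a positive difference and 0 were called, with a mean of 0.15, and their summed signal ran from 17.38 to 17.69 and from 17.21 to 17.56.

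Striated muscle markers varied most between mice, with 7 of 8 differences positive and 0 called, against 54.6% of all genes above 0 and 4.27% called higher. Their mean difference was 0.61, and 1.17 without control 1, and nitrate treated mouse 4 (2.999) and control 1 stood far above the other mice, which lay between -1.46 and 0.63. Their summed signal ran from 13.90 to 15.80 after nitrate and from 13.00 to 15.21 in controls. The mean differences of the endothelial, leukocyte and nerve lists were -0.01, -0.01 and -0.04, and 0.02, 0.06 and 0.004 without control 1. Single endothelial markers ran from -0.20 to 0.22, leukocyte markers from -0.27 to 0.19 and nerve markers from -0.46 to 0.21. In these lists 1 marker, of nerve, was called, and it was lower, against 4.62% of all genes. Every listed smooth muscle, endothelial, adipocyte and fibroblast marker was detected, and none of these was at 0. The part of cell composition in the differences of Plcb4, Plcd1 and the pathway genes was not tested. Column 3 of the slides held every control array and no array of a nitrate treated mouse, so the position on the slide and the treatment cannot be told apart.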

How the data were processed

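RNA of the descending aorta was measured on Agilent SurePrint G3 Mouse GE arrays in 5 old nitrate treated and 6 old control mice. The authors deposited spot intensities and quality flags from Feature Extraction 10.7.1.1, with the local background already subtracted and no scaling between arrays. The authors also deposited a table of log2 values, quantile normalized and centred on the median of all samples, which was used as an alternative. The signal was raised to at least 1, control and outlier-flagged spots were left out, log2 was taken, repeated spots of a probe were averaged, and quantile normalization was run over the 11 arrays. Of the members' spots 0 were flagged and 0 saturated. Per array, 24763 to 28672 probes were detected, and the number of arrays limits the precision.

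Groups were compared with limma 3.58.1 (R 4.3.3), whose moderated statistic is of the kind the study's methods name. Benjamini-Hochberg adjustment over all detected transcripts was added, which the study did not use. Probes that were not detected come from a fit over all probes. Single differences have a two-sided exact permutation test. A gene is read by its brightest detected probe. Named were all members with all probes, pathway genes past the thresholds (up to 25 by P value), and the 3 transcripts most correlated with each called member. The members and gene lists were chosen with earlier results of these data known. Of the pathway lists, 1 enters the totals and is not reported here by itself. The scripts were tested on simulated data. Alternatives were other scaling (75th percentile), normexp background correction, adding 16 before the log, the deposited table, detection rules, flagged spots, prior variance, slide and replicate number as blocks, the choice of probe, the thresholds, and each array left out in turn.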

Additional observations from a re-analysis of the deposited data

Results flagged for a closer look

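Among 40 groups of values of the named genes, 6 held a mouse far from the others of its group, where Dixon's test flags about 1 group in 20 by chance. The ratio of the gap to the range of the group is given for each. Control 1 was low for Plcb3 (0.709), for the 3′-most Plcb4 probe (0.696) and for Pdgfrb (0.689). Without control 1 the difference of Plcb4 was 0.34. Nitrate treated mouse 5 was low for Plcd4 (0.868), nitrate treated mouse 2 was high for Pdgfrb (0.714) and nitrate treated mouse 1 was low for Dgkd (0.761). Control 1 also had the lowest mean correlation with the other arrays, at 0.985 against 0.99 to 0.993.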

How the results depend on the processing

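Plcb4 and Plcd1 were the members called under every normalization, background, detection, prior and block setting run, and without each array. Plcb1 joined them without nitrate treated mouse 3, and 0 members passed with Benjamini-Hochberg adjustment. Leaving out each array gave 0.34 to 0.49 for the 3′-most Plcb4 probe and 0.29 to 0.34 for Plcd1. Correlations of same-numbered mice ran from -0.14 to 0.18. They were not set against those of differently numbered mice, so whether the replicate numbers pair the mice was not settled. With the replicate number as a block, 2433 transcripts, 9 pathway genes and 2 members were called, against 2128, 9 and 2 without it. Control 6 has no partner under this block, and leaving out control 6 alone gave 2424 transcripts, with Ednrb lost and Rac2 gained among the pathway genes in both settings. With slide as a block 7 pathway genes were called, without Ednrb and Oxtr.

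Transcripts called numbered 1218 with normexp, 3224 without the detection filter, 3394 without the fold limit and 3 with adjustment. Pathway genes called numbered 16 without the fold limit, 0 with adjustment and 11 with the mean of all detected probes of a gene. Without each array, transcripts called ran from 1596 (without control 1) to 2424, and pathway genes from 7 to 10, with F2r, Adra1a, Itpr2, Itpka and Itpk1 among them each time. With normexp, 6 pathway genes were called, without Adra1a, Ednrb and Oxtr. Beside the Plcb1 and Plcb4 probes given above, differences that changed sign or side of 0.05 when an array was left out ran from -0.0329 to 0.0894 for Plcd3, from -0.0698 to 0.00773 for Plcg1, from -0.0121 to 0.157 for Plcd3 minus Plcd4 and from -0.0431 to 0.0193 for the RefSeq end minus the upstream Plcb4 probe. They ran from 0.17 to 0.32 for Plcb4 minus Plcb1 and from 0.12 to 0.21 for Plcg2 minus Plcg1. The dimmer detected Plcb1 probe ran from 0.12 to 0.23 and passed the P value threshold without nitrate treated mouse 4 or 5. With slide as a block, the upstream Plcb4 probe (0.28) and the dimmer Plcb1 probe (0.19) crossed the P value threshold, the latter below 1.2-fold. The cause was not tested. The alternatives for differences between probes and for marker lists were chosen after seeing the data. For dim probes the signal over background limits what can be seen.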
